A study of Mus musculus with 6 samples.

Results

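The genes described here are 10 regulators of the G1 phase of the cell cycle, picked by symbol from the 24063 genes listed in the count files: the inhibitors Cdkn1a, Cdkn1b, Cdkn2a, Cdkn2b, Cdkn2c and Cdkn2d, the D-type cyclins Ccnd1, Ccnd2 and Ccnd3, and the kinase Cdk6. All 10 were found, and 9 had enough counts to be tested. RNA was sequenced from bone marrow LSK cells, which are negative for lineage markers, positive for Sca-1 and c-Kit, and contain the blood stem cells and multipotent progenitors. The 3 Asxl2-/- libraries came from C57BL/6 mice in which a floxed exon 11 of Asxl2 was deleted by Mx1-cre, and the 3 control libraries from mice with wild-type Asxl2, named in the sample titles as Mx1-cre controls. Every animal had received pIpC, a double-stranded RNA that induces interferon and thereby the Mx1 promoter, and per the study's methods the marrow was taken about a month later. Mx1-cre acts in all interferon-responsive cells, not in stem cells alone. Age and sex are not given in the labels.

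In G1, a D-type cyclin binds Cdk4 or Cdk6 and the kinase then phosphorylates the retinoblastoma protein, which releases E2F factors and commits the cell to S phase. INK4 inhibitors (Cdkn2a to Cdkn2d) bind Cdk4 and Cdk6 and displace the cyclin, while Cip/Kip inhibitors (Cdkn1a to Cdkn1c) bind cyclin and kinase together and also block Cdk2. Blood stem cells are mostly out of cycle, and these inhibitors and Cdk6 are known for setting how readily such cells enter it.

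Cdkn2a and Cdkn1a each begin at 2 alternative start sites, and the counts separated these, so the 150 bases before each start site are shown first. Cdkn2a encodes unrelated proteins from its alternative first exons: p19Arf, which stabilises p53, and p16Ink4a, which inhibits Cdk4 and Cdk6. The sequences are from RefSeq (GRCm38.p6, the build called mm10), 5′ to 3′ on the gene's strand. Capitals mark GGGCGG and TTTCCCGC, searched on both strands.
Cdkn2a before the p19Arf start, chr4:89294620-89294769, minus strand: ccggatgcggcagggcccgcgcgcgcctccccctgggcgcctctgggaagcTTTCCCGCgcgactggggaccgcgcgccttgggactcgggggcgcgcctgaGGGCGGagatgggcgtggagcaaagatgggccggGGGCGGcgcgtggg
Cdkn2a before the p16Ink4a start, chr4:89282193-89282342, minus strand: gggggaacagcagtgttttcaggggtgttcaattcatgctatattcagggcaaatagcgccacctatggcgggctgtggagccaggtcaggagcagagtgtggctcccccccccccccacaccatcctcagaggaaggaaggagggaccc
Cdkn1a before the upstream start, chr17:29090829-29090978, plus strand: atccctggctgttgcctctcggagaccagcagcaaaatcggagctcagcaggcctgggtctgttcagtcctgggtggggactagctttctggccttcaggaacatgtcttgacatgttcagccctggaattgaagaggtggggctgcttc
Cdkn1a before the downstream start, chr17:29093619-29093768, plus strand: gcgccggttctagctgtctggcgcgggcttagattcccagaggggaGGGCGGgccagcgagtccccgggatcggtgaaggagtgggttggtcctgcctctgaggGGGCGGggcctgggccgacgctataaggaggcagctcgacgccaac
The stretch before the p19Arf start held 22 CG dinucleotides and that before the p16Ink4a start held 2. For Cdkn1a these numbers were 13 before the downstream start and 2 before the upstream start. Over the longer RefSeq windows (250 bases before to 50 after a start), 12 windows were listed for 8 members, and 11 of the 12 lay above the median GC content of all 32851 windows, 52.7%. GGGCGG occurred in 9 of the 12 windows and in 35.7% of all windows, and TTTCCCGC in 1 of the 12 and in 1.07% of all. TATAAA occurred in 1 of the 12 and in 13.6% of all windows. The motif CACGTG occurred in 2 of the 12 and in 7.15% of all, while TTTGGCGC was in 0 of the 12 and in 0.514% of all. Matches that overlap another motif were kept, and none overlapped in the stretches shown. Windows for Ccnd1 and Ccnd2 were not used here.

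The libraries held 25528540 to 55032075 counts over all genes. Values given for each library follow the replicate order 1, 2, 3. The authors deposited 2 kinds of file, 1 count per transcript for Asxl2-/- replicates 1 and 3 and control replicate 2 (gene-count files), and 1 count per exon for Asxl2-/- replicate 2 and control replicates 1 and 3 (exon-count files, summed here over each transcript). A spliced read can enter such a sum more than once, so fold changes come from a fit with the kind as a term. Per-length averages over the 6 libraries, and shares and ratios within a library, pool both kinds unless given within a kind. Of the Asxl2 counts, 0.583% lay in exon 11 in Asxl2-/- replicate 2, against 10.3% and 11.99% in control replicates 1 and 3. The markers of the sort, Kit (280.0 to 431 CPM, the count scaled to a common library total) and Ly6a, which encodes Sca-1 (40.5 to 260 CPM), were present in every library. Xist stood at 1071 to 2351 CPM in the Asxl2-/- libraries and 13.0 to 61.3 CPM in the controls. The 4 Y-linked genes read reached no more than 2 counts in an Asxl2-/- library against 1026 to 4807 in the controls. By these genes the Asxl2-/- libraries had a female pattern and the controls a male one. Genotype and sex therefore cannot be told apart in any comparison between the groups, also for genes on the autosomes. Some markers of other blood cells also differed. Over all genes tested, 2.34% passed the test (edgeR adjusted p under 0.05) and 27.7% had an unadjusted p under 0.05. The 12 B-lymphoid markers summed to 215 to 256 CPM in Asxl2-/- and 51.0 to 76.2 CPM in control libraries (9 of 12 past the test, all higher), and the 10 megakaryocyte markers to 349.5 to 880.0 and 175 to 384 CPM (5 of 9 tested past it, all higher; Gp6 had at most 3 counts). The 10 erythroid markers summed to 546 to 925 and 1192 to 1710.5 CPM (0 of 10 past it by edgeR, 5 with an unadjusted p under 0.05). The 10 myeloid markers summed to 2552 to 6706 and 2596 to 7902 CPM (1 of 10, higher, 4 with an unadjusted p under 0.05). The 10 T and NK markers summed to 132 to 182 and 139 to 175 CPM (0 of 10, 3 with an unadjusted p under 0.05). The myeloid sums and the T and NK sums overlapped between the groups, and 3 of 10 is near the share of all genes. Mpo (1749 to 5506 CPM) and Nkg7 (104 to 156 CPM) made up most of these sums, which can hide other markers. Ltf stood at 5.71 to 21.7 CPM in Asxl2-/- and 0.537 to 1.18 CPM in control libraries, and Il7r at 5.36 to 11.4 and 1.92 to 3.58 CPM. In both lists 6 estimates were above 0 and 4 below. No marker was at 0 in every library. The part of these markers in the results below was not tested. In such bulk samples, fewer cells of a type and less RNA per cell cannot be told apart.

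Levels were first compared between the members, per kilobase of transcript. Ccnd3 was the most abundant, at 76.4 CPM per kb on average over the 6 libraries (66.8 to 86.2), followed by Cdk6 at 52.9 (45.5 to 72.1), Ccnd2 at 40.4 (32.9 to 51.9) and Ccnd1 at 27.97 (22.3 to 34.4). The inhibitors came after them, led by Cdkn1b at 22.6 CPM per kb (13.5 to 37.2) and Cdkn2d at 17.7 (11.2 to 24.1). Cdkn2c stood at 10.1 CPM per kb (8.35 to 11.6), Cdkn1a at 5.08 (3.65 to 6.62), Cdkn2a at 0.681 (0.0382 to 1.56) and Cdkn2b at 0.0645 (0.0270 to 0.138). Ccnd3 exceeded Cdk6 in 6 of 6 libraries, although by a ratio of only 1.01 in Asxl2-/- replicate 3, and Ccnd2 exceeded Ccnd1 in 6 of 6. The neighbours Cdk6 and Ccnd2, Ccnd1 and Cdkn1b, Cdkn1b and Cdkn2d, and Cdkn2a and Cdkn2b kept their order in 5 of 6 libraries each and overlapped within at least 1 kind of file, so they did not differ beyond their spread. The other neighbours kept their order in 6 of 6 libraries without overlap inside either kind of file. Cdk4, the kinase partner of the same cyclins, stood higher than all of these, at 279 to 500.3 CPM per kb.

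**Figure D1:**
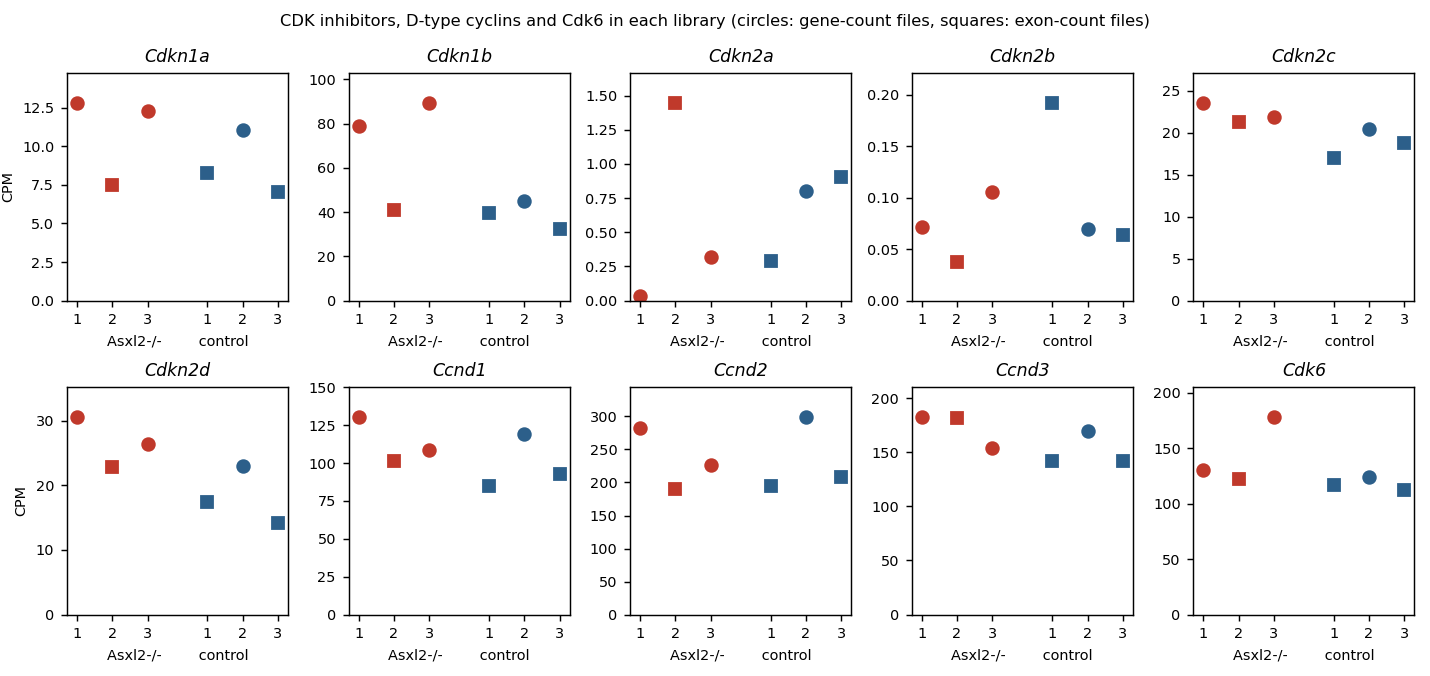
Level of each of the 10 members in each library, in CPM on a linear axis that starts at 0 and differs between panels (red, Asxl2-/-; blue, control; circles, gene-count files; squares, exon-count files). Within the squares, Cdkn2d lies at 22.8 CPM in Asxl2-/- replicate 2 and at 17.5 and 14.2 CPM in control replicates 1 and 3; Cdkn2a and Cdkn2b reach at most 1.45 CPM.

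None of the 9 tested members passed the comparison of Asxl2-/- with control cells (edgeR adjusted p under 0.05), where 2.34% of the 14145 genes tested did (2.04% higher and 0.304% lower in Asxl2-/- cells). Cdkn2d and Cdkn1b had an unadjusted p under 0.05, which is 2 of 9 members against 27.7% of all genes. In log2 CPM corrected for file kind, the groups did not overlap for 3 of 9 members, Cdkn1b, Cdkn2c and Cdkn2d, each higher in Asxl2-/- cells. Over all genes the groups were apart in this way for 44.4%, and apart and higher in Asxl2-/- cells for 23.6%. The median log2 fold change of the 9 members was 0.17 and that of all genes 0.00, and 6 of 9 members had the same sign in both kinds of file, against 67.8% of all genes. These shares are close to the background, so they are not a result about the members.

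Among the Cip/Kip inhibitors, Cdkn1b encodes p27Kip1, which holds Cdk2 complexes inactive in resting cells. Cdkn1b (NM_009875, chromosome 6, 134920401 to 134925525 on mm10, 3 exons) stood at 78.8, 40.8 and 89.4 CPM in the Asxl2-/- libraries and at 39.6, 45.0 and 32.5 CPM in the controls, from 1295 to 2535 counts. Asxl2-/- replicates 1 and 3 were high, while replicate 2 lay within the control range, although above both controls of its own kind of file. Its log2 fold change was 0.54 (SE 0.192, 95% interval 0.07 to 1.01, edgeR adjusted p = 0.143). Gene-count files alone gave a log2 ratio of 0.90, and exon-count files alone 0.18. Leaving out Asxl2-/- replicate 2 or control replicate 2 gave 0.90 and 0.18 again, since only 1 kind of file then holds both groups.

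Cdkn1a encodes p21Cip1, a target of p53 that stops the cycle after DNA damage. Cdkn1a (NM_001111099, chromosome 17, 29090986 to 29100722, 3 exons) stood at 12.8, 7.50 and 12.3 CPM in the Asxl2-/- libraries and at 8.29, 11.05 and 7.07 CPM in the controls, with groups that overlapped. The log2 fold change was 0.07 (SE 0.149, 95% interval -0.29 to 0.44, edgeR adjusted p = 0.778), and its sign was positive for gene-count files (0.19) but negative for exon-count files (-0.034). The ratio of Cdkn1b to Cdkn1a per length needs no scaling between libraries. Both transcripts have 3 exons, but that of Cdkn1a begins with the upstream first exon, which held few counts (given below). The ratio was 4.95, 4.38 and 5.85 in Asxl2-/- and 3.85, 3.28 and 3.70 in the controls. The groups did not overlap, and the exact two-sided permutation test gave p = 0.10, the smallest that 3 against 3 samples allow (0.25 adjusted over 5 ratios, chosen after their values were seen). The log2 difference was 0.48 over all libraries and 0.47 within the kinds of file, where the exact permutation test gave p = 0.111, the smallest of its 9 arrangements.

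Cdkn1c, the remaining Cip/Kip gene, encodes p57Kip2 and is expressed from the maternal allele. Cdkn1c is not among the 10 and was known from earlier results of these data. It stood at 9.79, 5.19 and 6.52 CPM in the Asxl2-/- libraries and at 1.29, 0.590 and 0.801 CPM in the controls, from 17 to 276 counts. All 3 Asxl2-/- libraries lay above all 3 controls. Its log2 fold change was 2.96 (SE 0.442, edgeR adjusted p = 0.0345), and all 4 of its exons were higher in Asxl2-/- replicate 2 than in both control exon-count libraries. With library size as the only scaling it was 3.05 (adjusted p = 0.0573). Without Asxl2-/- replicate 1, Asxl2-/- replicate 3 or control replicate 3 it was 2.76, 2.98 and 2.91. The edgeR adjusted p was then 0.0958, 0.0771 and 0.160. Without control replicate 1 it was 3.25 and past the threshold (edgeR adjusted p = 0.0365). Without Asxl2-/- replicate 2 or control replicate 2 it was 3.78 and 2.31, where only 1 kind of file holds both groups.

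**Figure D2:**
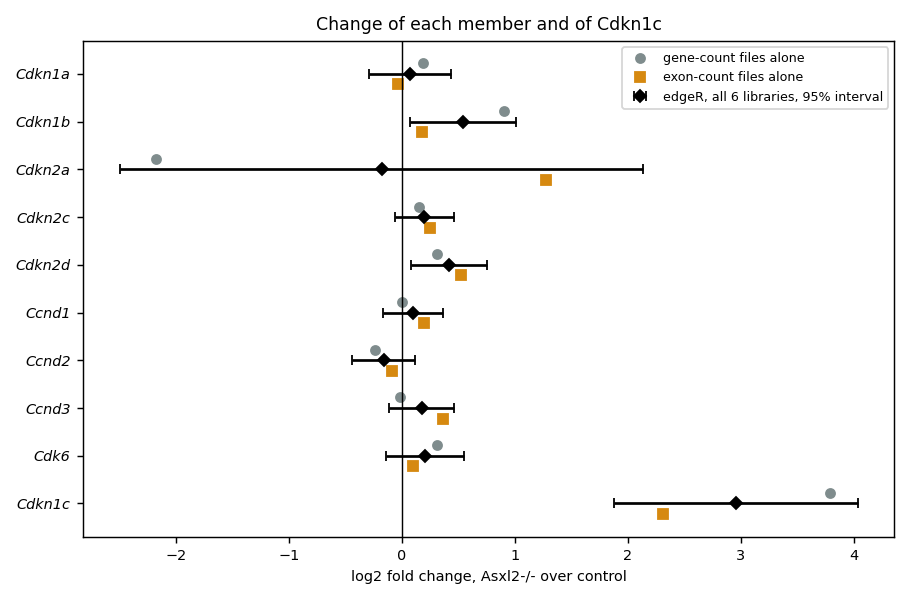
Log2 fold change of Asxl2-/- over control for the 9 tested members and Cdkn1c (diamonds, edgeR with the file kind as a term; bars, 95% intervals), with the log2 ratio of mean CPM in the gene-count files (grey circles) and the exon-count files (orange squares). The intervals of Cdkn1b, Cdkn2d and Cdkn1c lie above 0 before adjustment, and the 2 kinds of file disagree most for Cdkn2a (-2.18 and 1.28).

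Of the INK4 inhibitors, Cdkn2d and Cdkn2c (p19Ink4d and p18Ink4c) made up nearly all of the RNA. Cdkn2d (NM_009878, chromosome 9, 21288464 to 21291209, 2 exons) stood at 30.6, 22.8 and 26.4 CPM in the Asxl2-/- libraries and at 17.5, 23.1 and 14.2 CPM in the controls. Within each kind of file the Asxl2-/- libraries were above the controls, by 0.31 (gene-count) and 0.53 (exon-count) on the log2 scale. The fitted log2 fold change was 0.42 (SE 0.137, 95% interval 0.08 to 0.75, edgeR adjusted p = 0.126), the smallest p of the members. It ran from 0.31 to 0.53 when any of the 6 libraries was left out. Both ends came from omissions after which only 1 kind of file holds both groups. Both exons of Cdkn2d were higher in Asxl2-/- replicate 2 than in control replicates 1 and 3, by 0.43 and 0.56.

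Cdkn2c restrains the division of blood stem cells and of developing lymphocytes. Cdkn2c (NM_001301368, chromosome 4, 109660876 to 109666756, 3 exons) stood at 23.6, 21.2 and 21.9 CPM in the Asxl2-/- libraries and at 17.0, 20.5 and 18.8 CPM in the controls. The Asxl2-/- libraries were the 3 highest. The log2 fold change was 0.20 (SE 0.107, 95% interval -0.06 to 0.46, edgeR adjusted p = 0.273). NM_007671, of 2 exons, begins at another start site, and its first exon extends the middle exon of NM_001301368 by 215 bases. These bases brought 16, 19 and 13 reads beyond the 219, 141 and 145 of the shorter form in Asxl2-/- replicate 2 and control replicates 1 and 3. Most reads of that exon thus touched its common bases in each library, which does not tell the start sites apart.

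Cdkn2a (NM_009877, chromosome 4, 89274473 to 89294619, 3 exons) was close to the detection limit. The Asxl2-/- libraries held 1, 77 and 9 counts, and the controls 15, 23 and 43. In raw counts, Asxl2-/- replicates 1 and 2 were thus the lowest and the highest of all 6. In log2 CPM with the file kind removed, Asxl2-/- replicate 1 was also the lowest (-2.92), but control replicate 2 was the highest (0.39). The log2 fold change was -0.18 with a 95% interval of -2.50 to 2.14 (edgeR adjusted p = 0.923), the log2 ratio went from -2.18 (gene-count files) to 1.28 (exon-count files), and no difference was detectable at this depth.

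The exon-count files separated the Cdkn2a transcripts. The p19Arf first exon (chromosome 4, 89294334 to 89294619) held 26, 7 and 13 counts in Asxl2-/- replicate 2 and control replicates 1 and 3. The p16Ink4a first exon (89281986 to 89282192), which lies 12141 bases nearer the shared exons, held 0 counts in all 3 libraries. A count of 0 among the 46 first-exon counts allows a p16Ink4a share of up to 6.52%, and among the 26, 7 and 13 of the single libraries up to 11.5%, 42.9% and 23.1%. This limit covers counting error only, since PCR reads without molecular identifiers are not independent molecules. The shared exons 2 and 3 held 36 and 15 counts in Asxl2-/- replicate 2, 7 and 1 in control replicate 1, and 22 and 8 in control replicate 3. In the gene-count files the p19Arf line exceeded the p16Ink4a line by 0 and 3 reads in Asxl2-/- replicates 1 and 3 and by 7 in control replicate 2. Every first-exon read of Cdkn2a that the exon counts could place thus lay downstream of the CG-rich sequence shown for p19Arf.

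Cdkn2b encodes p15Ink4b and lies 11669 bases from Cdkn2a. For Cdkn2b (NM_007670), the Asxl2-/- libraries held 2, 2 and 3 counts, and the controls 10, 2 and 3. All but control replicate 1 were at or under the 3 counts taken as the floor, so no fold is given.

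Cdkn1a was likewise read mainly from a single start. Its upstream first exon (chromosome 17, 29090986 to 29091101) held 4, 1 and 0 counts in Asxl2-/- replicate 2 and control replicates 1 and 3, and its downstream first exon (29093772 to 29093861) held 34, 42 and 38. The upstream share of both was 10.5% (exact 95% interval 2.94 to 24.8) in Asxl2-/- replicate 2 and 2.33% (0.0589 to 12.3) in control replicate 1. In control replicate 3 it was 0 of 38, which allows up to 7.89%. Fisher's exact tests (two-sided) between Asxl2-/- replicate 2 and the controls gave p = 0.181 and 0.115 (both 0.362 adjusted over 4 tests), and they compare libraries, not conditions.

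**Figure D3:**
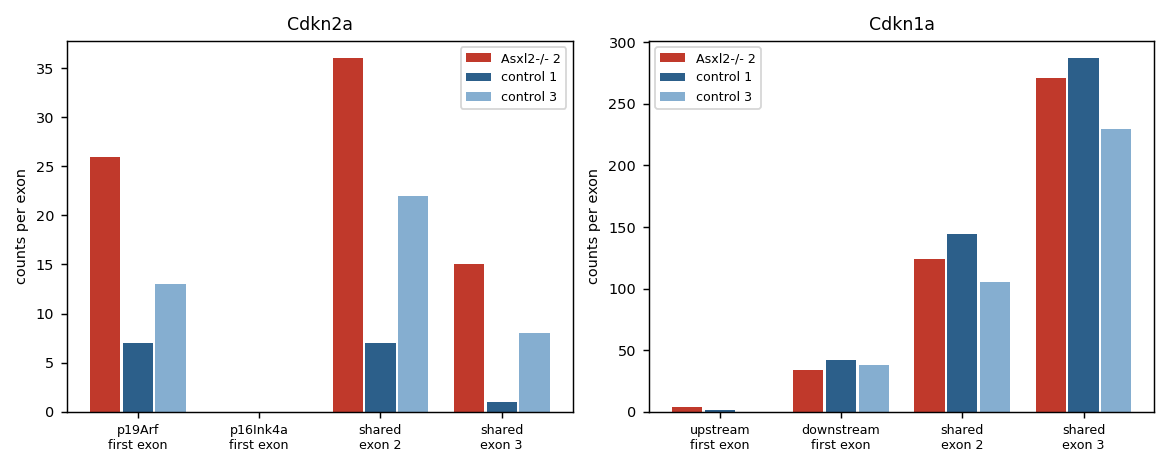
Counts per exon for Cdkn2a (left) and Cdkn1a (right) in the 3 exon-count libraries, on linear axes from 0. The p16Ink4a first exon has no bar because it held 0 counts in every library, while the p19Arf first exon held 7 to 26; the upstream first exon of Cdkn1a held 0 to 4 counts and the downstream one 34 to 42.

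The D-type cyclins couple growth factor signals to Cdk4 and Cdk6. Ccnd1 (NM_007631, chromosome 7, 144929931 to 144939925, 5 exons) stood at 130.5, 101 and 109 CPM in the Asxl2-/- libraries and at 84.5, 119 and 92.8 CPM in the controls, and the groups overlapped. Its log2 fold change was 0.10 (SE 0.108, 95% interval -0.16 to 0.36, edgeR adjusted p = 0.580). Gene-count files alone gave a log2 ratio of 0.0026, and exon-count files alone 0.19. In the latter, all 5 exons were higher in the 1 Asxl2-/- library than in both controls, by 0.05 to 0.25 on the log2 scale.

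Ccnd2, the cyclin induced by cytokines in many blood cells, was with Cdkn2a the tested member with a negative estimate. Ccnd2 (NM_009829, chromosome 6, 127125709 to 127151048, 5 exons) stood at 282, 189.7 and 226 CPM in the Asxl2-/- libraries and at 194, 299 and 209 CPM in the controls. Control replicate 2 was the highest and Asxl2-/- replicate 2 the lowest, but they differ in kind of file. Every gene-count value lay above every exon-count value. The log2 fold change was -0.16 (SE 0.114, 95% interval -0.44 to 0.12, edgeR adjusted p = 0.388), and 4 of its 5 exons were lower in Asxl2-/- replicate 2 than in both control exon-count libraries.

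Ccnd3 is the D-type cyclin best known for roles in lymphoid precursors and red cell precursors. Ccnd3 (NM_001081636, chromosome 17, 47505051 to 47599688, 7 exons) stood at 183, 182 and 154 CPM in the Asxl2-/- libraries and at 142, 169.8 and 141 CPM in the controls. Asxl2-/- replicate 3 lay between the controls. Its log2 fold change was 0.17 (SE 0.119, 95% interval -0.12 to 0.46, edgeR adjusted p = 0.372), with a log2 ratio of -0.013 for gene-count files and 0.36 for exon-count files. Its last exon shares 358 bases with Bysl on the other strand, 16.9% of the transcript, and reads there cannot be told apart without strand. Leaving that exon aside, the other 6 exons were also higher in Asxl2-/- replicate 2 than in both control libraries. The upstream first exon, 216 bases long, held 69, 59 and 39 counts in Asxl2-/- replicate 2 and control replicates 1 and 3, against 1483, 1125 and 1032 in the fourth exon of the same length. Its share of both was 4.45% (exact 95% interval 3.48 to 5.59), 4.98% (3.81 to 6.38) and 3.64% (2.60 to 4.94), and the Fisher's exact tests against the controls gave p = 0.523 and 0.319 (0.523 and 0.426 adjusted).

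Inside each kind of file, the Ccnd2 and Ccnd3 shares of the groups did not overlap, with 1 library on one side. With 1 library against 2 such a separation arises easily, so it does not single out these shares. The Ccnd1 shares overlapped in exon-count files, and no share passed the test given below. Over all libraries Ccnd3 took 49.0% to 59.0% of their summed per-length level, Ccnd2 22.6% to 31.7% and Ccnd1 18.1% to 20.4%. In gene-count files the Ccnd2 share was 28.8% and 27.9% in Asxl2-/- replicates 1 and 3 against 31.7% in control replicate 2. In exon-count files it was 22.6% in Asxl2-/- replicate 2 against 27.4% and 28.4% in control replicates 1 and 3. The Asxl2-/- libraries were thus lower for Ccnd2 in both kinds, with a mean difference of -4.33 percentage points over the kinds. For Ccnd3 they were higher in both kinds, with 50.9% and 51.7% against 49.0% and with 59.0% against 54.5% and 52.4%, by 3.92 percentage points on average. An exact two-sided permutation within each kind of file, added after the data were seen, gave p = 0.111 for either share, the smallest that its 9 arrangements allow (0.167 adjusted over 3 shares). The Ccnd1 share differed by 0.41 percentage points (exact permutation p = 0.556).

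The ratio of Ccnd2 to Ccnd1, both of 5 exons, was 1.42, 1.23 and 1.37 in the Asxl2-/- libraries and 1.51, 1.65 and 1.48 in the controls. The groups did not overlap, with a log2 difference of -0.21 and the smallest possible exact permutation p = 0.10 over all 6 libraries (0.25 adjusted over 5 ratios). Within the kinds of file the difference was -0.26 (exact permutation p = 0.111). The ratio of Ccnd2 to Ccnd3 was 0.566, 0.383 and 0.540 in the Asxl2-/- libraries and 0.502, 0.647 and 0.541 in the controls. Its groups overlapped over all libraries (log2 difference -0.20, exact permutation p = 0.50) but not inside either kind of file (-0.34, exact permutation p = 0.111). Each of the 5 ratios was apart inside both kinds of file, where 1 library stands against 2. This held even for Ccnd3 to Ccnd1, with opposite signs in the kinds (-0.015 and 0.17), so it does not single out any ratio. Ccnd3 to Ccnd1 differed by -0.01 over all libraries and by 0.08 within the kinds (exact permutation p = 0.80 and 0.667), and Cdkn2d to Cdkn2c by 0.32 and 0.22 (p = 0.20 and 0.333). Adjusted over the 5 ratios, the smallest p within the kinds was 0.185, so no ratio passed, and with 9 arrangements none could.

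**Figure D4:**
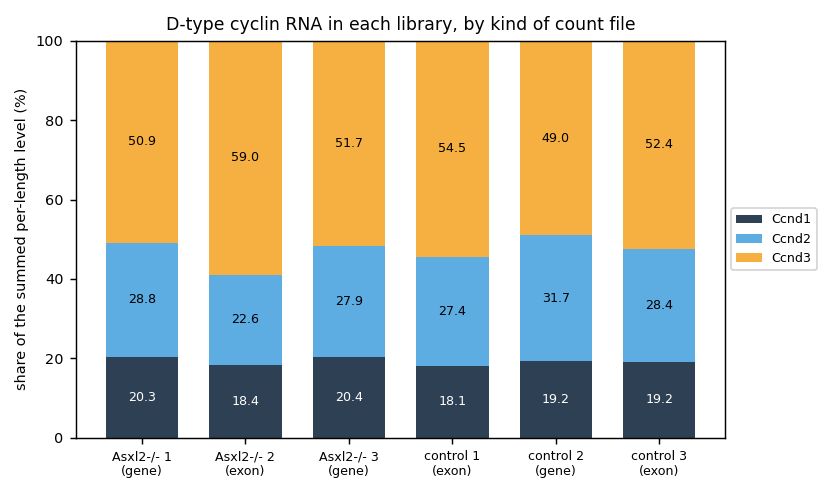
Share of each D-type cyclin in the summed per-length level of the 3, in percent, for each library with its kind of count file. Ccnd3 is the largest part in every bar and is largest in Asxl2-/- replicate 2, at 59.0%.

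Cdk6 is the G1 kinase that marks activation of blood stem cells. Cdk6 (NM_009873, chromosome 5, 3344312 to 3522225, 7 exons) stood at 130.4, 122 and 178 CPM in the Asxl2-/- libraries and at 117, 124 and 112 CPM in the controls. Asxl2-/- replicate 3 was high, and the other 2 were near the controls. The log2 fold change was 0.20 (SE 0.141, 95% interval -0.14 to 0.55, edgeR adjusted p = 0.383), and without Asxl2-/- replicate 3 it was 0.05 (adjusted p = 0.758). Without control replicate 2, when only the exon-count files hold both groups, it was 0.10.

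Lists of related genes, 4 in number, gave the setting of these values. Of 25 other genes of G1 and S-phase entry, Cdkn1c rose and no other passed by edgeR, with a median log2 fold change of -0.10. An unadjusted p under 0.05 was found for 8 of the 25 (27.7% of all genes), and DESeq2 called 5 (16.1% of all genes), Cdkn1c, Ccne1, E2f4, E2f2 and Cdc25a. The next smallest p-values, named after they were seen, belonged to Ccne1 (log2 fold change -1.09, edgeR adjusted p = 0.0559), the cyclin partner of Cdk2, to E2f4 (-0.69, 0.0596), a repressor E2F, and to E2f2 (0.41, 0.0684), an activator. Ccne1 stood at 31.7, 41.9 and 41.8 CPM in the Asxl2-/- libraries and at 86.6, 66.1 and 124 CPM in the controls, without overlap. It passed with DESeq2 (adjusted p = 1.59e-05), limma-voom (0.0463) and edgeR without the file kind (0.0324), while E2f4 and E2f2 passed with DESeq2 (0.000143 and 0.0146) and in neither of the other 2 fits. Cdk4 and Cdk2, the kinases that the inhibitors bind, had log2 fold changes of -0.23 and 0.13 (edgeR adjusted p = 0.193 and 0.391).

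Among 18 regulators of CDK inhibitor and cyclin genes 0 passed by edgeR, 4 had an unadjusted p under 0.05 (27.7% of all genes), and DESeq2 called 3 (16.1% of all genes). The smallest p-values belonged to Mycn, a Myc family factor (1.46, edgeR adjusted p = 0.0647), and to Foxo1, a factor that activates Cdkn1b (0.98, 0.0674). Bmi1 and Ezh2, Polycomb proteins known to silence Cdkn2a and named after their values were seen, stood at -0.19 and -0.06 (edgeR adjusted p = 0.192 and 0.786), and Myc at -0.04 (0.804). Among 20 p53 target genes 0 passed by edgeR, 8 had an unadjusted p under 0.05, and DESeq2 called 4, against the same 27.7% and 16.1% of all genes. Phlda3, an inhibitor of Akt (1.01, edgeR adjusted p = 0.0855), and Rrm2b, a ribonucleotide reductase subunit (0.44, 0.0875), led them, while the p53 gene Trp53 itself was at -0.33 (0.0960).

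Of 20 replication and mitosis genes 0 passed by edgeR, 5 had an unadjusted p under 0.05, all with lower values in Asxl2-/- cells, and DESeq2 called 3 (16.1% of all genes). The median was -0.12, and 15 of 20 estimates were negative. Plk1, a mitotic kinase (-0.37, edgeR adjusted p = 0.0999), and Cdc20, an activator of the anaphase-promoting complex (-0.32, 0.119), had the smallest p-values. An unadjusted p under 0.05 with a lower value was found for 12.6% of all genes.

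**Figure D5:**
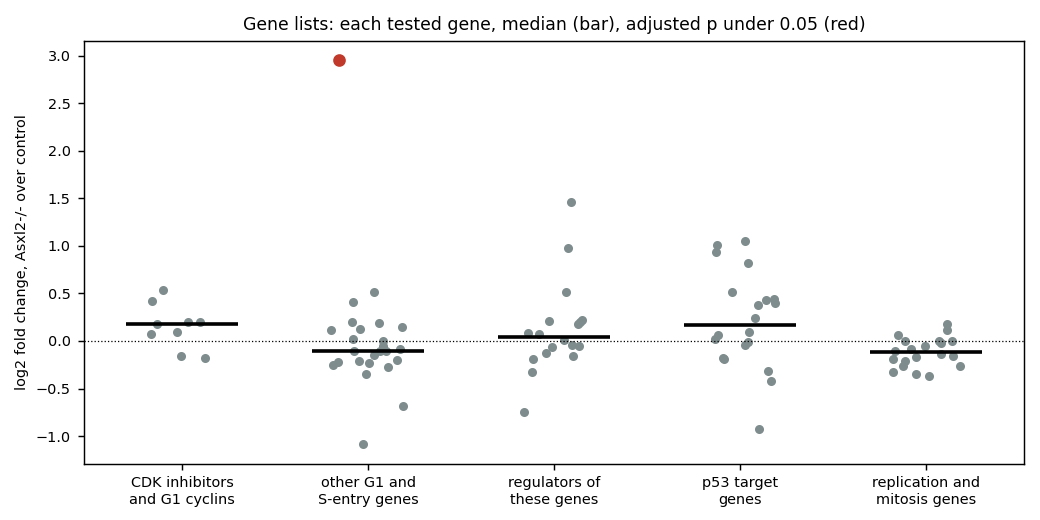
Log2 fold change of Asxl2-/- over control for each tested gene of the 5 lists (points), with the list's median (bars) and genes past the threshold in red. Only Cdkn1c, at 2.96, is red; the median of the 9 CDK inhibitors, cyclins and Cdk6 is 0.17.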

How the data were processed

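LSK cells of 3 Asxl2-/- and 3 control samples were sequenced from poly(A)-selected, unstranded libraries. The authors deposited raw counts of reads per RefSeq transcript (3 files) or per exon (3 files) on mm10. The submitters' processing notes name STAR, featureCounts and DESeq2 without versions, while the paper's methods name Cuffdiff, which was not used here. Each gene was represented by its longest transcript, and exon counts were summed, so reads over a splice junction can count more than once and raise these totals. Groups and replicate numbers are from the sample titles, and p-values measure the spread between these samples.

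Counts were tested with edgeR 4.0.16 (R 4.3.3; quasi-likelihood test, TMM scaling, filterByExpr, file kind plus group, 3 residual degrees of freedom), adjusted over 14145 genes (Benjamini-Hochberg, threshold 0.05), and the script was tested on simulated data. SEs and 95% intervals were derived from the F statistic, and the intervals are not adjusted. CPM uses TMM-scaled totals. Log2 CPM with the file kind removed (prior count 2) uses the same 6 libraries, so its spread is somewhat too small. Exact binomial intervals, Fisher's and permutation tests used scipy 1.17.1, and shares and ratios were also permuted within each kind of file, a choice made after seeing the data. The members, the lists and the other choices were made with earlier results of these data known. Named were all 10 members, Cdkn1c, and from each other list up to 3 genes per direction past the threshold or else the 2 with the smallest p. Alternatives were DESeq2 1.42.0, limma-voom 3.58.1, other scalings, filters and transcripts, no file kind, replicate blocks, no X and Y genes, fits within either file kind, and omission of single libraries.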

Additional observations from a re-analysis of the deposited data

How the results depend on the processing

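No member passed in the fits with limma-voom or DESeq2, under library-size or median-ratio scaling, without a filter or with a minimum of 10 counts, without file kind, with the replicate block but not file kind, on the highest-count transcript, or without X and Y; the filter of 10 counts gave Cdkn2a no value. With file kind plus replicate block, which leaves 1 residual degree of freedom, 2 members passed, Cdkn1b (0.54, edgeR adjusted p = 8.16e-06) and Cdkn2d (0.42, 0.00355). Whether the numbers pair the samples was not settled. Correlations across genes of same-numbered libraries were 0.294, -0.00766 and -0.00277 for replicates 1, 2 and 3 in log2 CPM, where every such pair differs in file kind. With file kind removed they were 0.635, 1 and 0.388, and each library correlated best with its own number, but the correction forces the value of 1 and can raise the others. The difference of replicate 1 and 3, free of that, correlated at 0.337 between the groups. This is 1 correlation without a reference value, so it cannot decide whether the samples are paired. Against 331 genes in all (288 higher, 43 lower), the block with file kind gave 5179, DESeq2 2278 (1171 higher, 1107 lower) and library size only 161. With 1 library left out in turn, the counts ran from 9 to 1312 for all genes. In the omissions covered here they were 0 for the members, 0 to 4 for other G1 genes and 0 to 2 for regulators. For p53 targets they were 0 to 1, and for replication genes 0 to 2. These counts do not cover omission of Asxl2-/- replicate 2 or control replicate 2, after which only 1 kind of file holds both groups. They therefore do not say whether a member passed in those fits. Against 1 other G1 gene, DESeq2 gave 5, the block with file kind 8, limma-voom, no file kind and the block alone 2 each, and library size only 0. Against 0 regulators, DESeq2 gave 3, the block with file kind 5, and no file kind and the block alone 1 each. Against 0 p53 targets and 0 replication genes, DESeq2 gave 4 and 3 and the block with file kind 12 and 5.

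Small changes reversed. Cdkn2a (-0.18) became 0.23 with limma-voom and 1.28 on exon-count files, and ran from -2.16 to 1.29 with a library left out. Cdkn1a (0.07) was -0.034 on exon-count files and ran from -0.033 to 0.18, Ccnd3 (0.17) was -0.013 on gene-count files and ran from -0.013 to 0.36, and Ccnd2 (-0.16) became 0.00055 with the block without file kind. Both ends of each of these ranges came from omissions after which only 1 kind of file holds both groups. The Ccnd3 to Ccnd1 ratio (-0.01) became 0.075 within the kinds of file, an alternative added after seeing the data. The cause was not tested. Depth limits Cdkn2a and Cdkn2b, with at most 77 and 10 counts.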

Other observations

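The 3 tested genes whose pattern over the 6 libraries was most like that of Cdkn2d, the member with the smallest p, were Fam131a, Zxdc and Plscr3, with Pearson r of 0.999, 0.998 and 0.998 in log2 CPM after the file kind was removed. These values are a description over 6 libraries that share the same groups and the same correction. The log2 fold changes of Fam131a, Zxdc and Plscr3 were 1.46, 0.25 and 0.18 (edgeR adjusted p = 0.0931, 0.226 and 0.224), so the likeness was one of shape and not of size.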
